A study of Mus musculus with 6 samples.

Results

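MicroRNAs that are often taken as references in quantitative PCR of cells and vesicles were followed through the small RNA libraries of the study. The entries were mir-103-1, mir-103-2, mir-107, mir-191, mir-425, mir-423, mir-186 and mir-320, taken by name, and all 8 were found among the 1006 precursor entries of the table. There were 6 libraries. Myo-EVs, the extracellular vesicles of C2C12 cells, a mouse myoblast line, were sequenced without stress in 2 libraries, and FFSS-Myo-EVs, the vesicles of C2C12 cells exposed to fluid flow shear stress on an orbital shaker, in 2 libraries. Mouse primary osteoblasts (OB) and mouse primary bone marrow cells (BM) had 1 library each and no stress. The labels give a mixed strain for every library, also for the vesicles of the cell line, with 81.25% of C57BL/6J and the remaining 18.75% of 129/SvJ, and an age of 8 to 10 weeks for OB and BM. The methods describe bone marrow from the tibiae of a single male mouse within this age, but osteoblasts of neonatal calvariae pooled from several male mice. The culture text of the labels, the same for all libraries, names vitamin D and dexamethasone and not shear stress, which is given in the titles. The vesicles come from 1 cell line, and no source says whether the libraries of a group were separate cultures, so a p-value measures only the spread between these libraries.

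A microRNA (miRNA) is cut from a hairpin precursor, which has a 5p and a 3p strand, and its seed, bases 2 to 8 of the mature strand, pairs with target messages. Quantitative PCR gives the level of a miRNA only relative to a reference in the same RNA, so that a change in the reference enters every level that is computed from it. In cells, miR-103, miR-107, miR-191, miR-423, miR-186 and miR-320 are used in this way because they are found in many tissues. Vesicles carry a selected part of the small RNA of the cell, and a miRNA that is even among cells need not be even between cells and vesicles.

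The mature sequences are shown because the table lists precursors only and because reads of the 3p strand cannot separate the copies of mir-103. Of the 8 entries, 7 were matched to the RefSeq sequences of GRCm38.p6. The seed is in capitals.

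miR-103-3p (from mir-103-1 and from mir-103-2): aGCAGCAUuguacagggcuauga
miR-107-3p: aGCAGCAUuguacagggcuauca
miR-103-1-5p: gGCUUCUUuacagugcugccuug
miR-103-2-5p: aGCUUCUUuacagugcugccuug
miR-191-5p: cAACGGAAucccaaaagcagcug
miR-425-5p: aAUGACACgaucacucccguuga
miR-423-5p: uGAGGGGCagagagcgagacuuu
miR-423-3p: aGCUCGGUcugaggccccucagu
miR-186-5p: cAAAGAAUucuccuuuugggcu

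The 3p strands of mir-103-1 and mir-103-2 were identical, and that of mir-107 differed from them by 1 substitution, G22C, counted from the 5′ end with the base of miR-103-3p first. These entries share the seed GCAGCAU, which no other mature name in the RefSeq table of 1679 names has. The 5p strands of the copies of mir-103 differed at their first base only (G1A, that of mir-103-1 first), and their seed, GCUUCUU, was also that of miR-107-5p. The seed of miR-425-5p is shared with miR-489-3p and that of miR-423-5p with miR-6921-5p, and the seeds of the miR-191, miR-423-3p and miR-186 strands with no other name. The 8 entries thus share a seed only within miR-103 and miR-107, mir-320 not being compared, and a count for an entry adds the strands of both arms.

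The hairpin of mir-423 is printed whole, with both mature strands in capitals, because this entry dominated the results below. It lies on chr11:77078064-77078172 on the minus strand of GRCm38.

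mir-423 hairpin: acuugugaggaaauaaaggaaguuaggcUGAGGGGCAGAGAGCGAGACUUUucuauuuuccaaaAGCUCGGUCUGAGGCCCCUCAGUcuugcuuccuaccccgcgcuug

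By the GENCODE M21 annotation of GRCm38, mir-103-1 (chr11:35782396-35782481), mir-103-2 (chr2:131288052-131288137) and mir-107 (chr19:34820687-34820773) each lie in an intron of a pantothenate kinase gene, which are Pank3, Pank2 and Pank1, respectively. These kinases catalyse the first step of coenzyme A synthesis. mir-423 lies in an intron of Nsrp1, a splicing regulator, and mir-186 (chr3:157544279-157544349) in an intron of Zranb2, a zinc finger gene. mir-191 (chr9:108568319-108568392) and mir-425 (chr9:108568777-108568861) lie 384 bases apart in exonic sequence of the noncoding gene 4833445I07Rik. An annotated miRNA gene, Gm24083, overlaps mir-191 on the other strand. mir-320 (chr14:70443510-70443591), known as a hairpin that is made without the nuclear Drosha step, overlaps no other gene. The host genes are on the strand of the miRNA.

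The value used is the normalized expression value of the authors, which is the read count of an entry multiplied by 1 constant per library. Total counts ranged from 2414132 to 6092460 per library. Together the 8 entries took 0.711% of the counts in OB, 1.72% in BM, 6.18% and 7.08% in the Myo-EV libraries, and 4.33% in each FFSS-Myo-EV library. The muscle markers (6 of 6 in the table) had a summed value of 118.9 in OB, 71.9 in BM, 2052.9 and 2446.9 for Myo-EVs and 2641.9 and 2625.9 under FFSS, with mir-1a-1 at 0 in all 4 EV libraries. The blood cell markers (4 of 5 in the table by name) had a sum of 11281.2 in BM, of 126.5 in OB, of 11.0 and 9.6 for Myo-EVs and of 43.9 and 34.3 under FFSS, with mir-223 and mir-144 at 0 in the second Myo-EV library. The mesenchymal markers (6 of 6) summed to 536436 in OB, from 335112 to 437712 in the EVs and 22199.3 in BM. The mir-122 entry, known from liver and serum, had 3.9 in OB, 2.4 in BM, 6.0 and 4.8 for Myo-EVs, and 17.9 and 15.5 under FFSS. Blood cell markers were thus highest in BM and mesenchymal ones in OB. The muscle and blood cell sums and mir-122 were higher under FFSS without overlap, as were 36.7% of the 354 tested entries. The blood cell sums and mir-122 were low in the EVs, at 43.9 or less. Of these markers, mir-451a (log2 fold change 2.36) and mir-122 (1.47) were called higher by edgeR, where 12.1% of all tested entries were. Their EV means, 12.85 and 11.05, were near the test's filter of a mean of 10. The entry mir-122 passed that filter only through its FFSS values. The muscle sum did not stand for each muscle miRNA. In the edgeR test below, mir-206 (EV mean 2387.2) was not called, with a log2 fold change of 0.15. The entries mir-133a-1 (-1.49), mir-133a-2 (-1.92) and mir-133b (-1.75), with EV means of 26.8 or less, were called lower. The part of these markers in the levels and changes below was not tested.

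From the lowest to the highest of the 4 condition means, the 8 entries ranged from 0.54 for mir-107 to 5.61 for mir-423 on the log2 scale. Their median range was 1.82, the median over 443 entries was 3.60, and among the 8 only mir-423 was above the latter. Many of the 443 entries were at a lower level than the 8, so 3.60 is not a median for entries of like level. Over the 17 other reference entries described below, the median range was 1.65, narrower than that of the 8. The entry mir-423, whose miR-423-5p strand is often measured in serum, had a normalized expression value of 3458.7 in OB and 5846.9 in BM, 158367 and 179495 for Myo-EVs, and 111378 and 107260 under FFSS. The Myo-EV mean, 168931 ± 14939.5 (SD, n = 2), was 48.8 times OB and 28.9 times BM, and every EV library was far above both cells. By count it was the entry at rank 4 in both Myo-EV libraries and at rank 7 in both FFSS-Myo-EV libraries, against rank 65 in OB and 45 in BM. The entry took 5.49% and 6.21% of the counts in Myo-EVs and 0.121% in OB. The counts cannot show which of its arms was read.

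The entry mir-320 had a value of 1211.1 in OB, 1249.9 in BM, 5299.2 and 6914.2 in Myo-EVs, and 4782.8 and 4818.8 under FFSS. The EV libraries were all above both cells, with a Myo-EV mean 5.04 times OB and 4.89 times BM. The entry mir-186 had 969.8 in OB, 2764.8 in BM, 3279.5 and 3755.9 in Myo-EVs, and 2654.9 and 3114.3 under FFSS. OB was lowest and BM fell among the EV libraries, so that Myo-EVs were 3.63 times OB and 1.27 times BM. These 3 entries thus had their highest value in a Myo-EV library and their lowest in OB.

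The other entries were highest in bone marrow. The entry mir-191, known for expression in blood cells and many other tissues, had 6447.0 in OB, 18360.5 in BM, 6261.9 and 7200.4 in Myo-EVs, and 5346.6 and 5357.0 under FFSS. OB lay between the Myo-EV libraries, and the Myo-EV mean was 0.367 times BM and 1.04 times OB, the latter 0.928 with median-of-ratios scaling. Its neighbour mir-425 had 706.9 in OB, 1283.3 in BM, 275.0 and 277.9 in Myo-EVs, and 290.9 and 332.3 under FFSS. Both cells were above every EV library, and the Myo-EV mean was 0.391 times OB and 0.215 times BM.

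The entry mir-103-1 had 3527.2 in OB, 5723.4 in BM, 2180.3 and 3299.6 in Myo-EVs, and 2894.0 and 2990.3 under FFSS. The FFSS-Myo-EV libraries fell between the Myo-EV libraries, which differed by 0.60 on the log2 scale. The entry mir-103-2 followed it closely, and its count was from 1.02 to 1.03 times that of mir-103-1 in the 6 libraries, so these entries are not independent measurements. The entry mir-107, at a lower level, had 377.2 in OB, 458.7 in BM, 279.1 and 353.3 in Myo-EVs, and 310.8 and 331.1 under FFSS. It had the narrowest range of the 8 entries, 1.45-fold from the lowest to the highest condition mean. How the authors assigned reads that match more than 1 precursor is not stated.

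**Figure D1:**
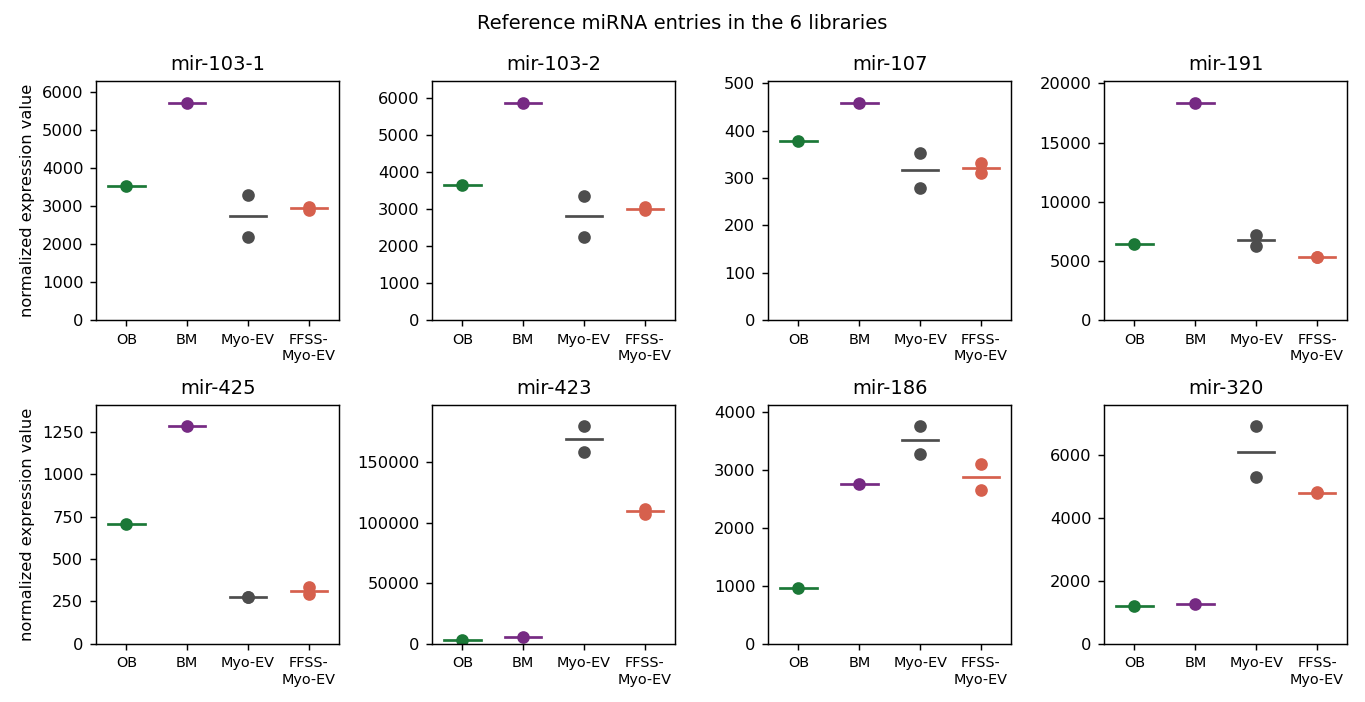
Normalized expression value (vertical axis, linear from 0, its own scale in each panel) of each reference entry in OB and BM (1 library each) and in Myo-EVs and FFSS-Myo-EVs (2 libraries each). Points are libraries and bars are group means, and mir-423 goes from 3458.7 in OB to 179495 in a Myo-EV library while mir-107 stays between 279.1 and 458.7.

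With 1 library each, OB and BM have no replicate error and no test was run. Exact Clopper-Pearson 95% intervals, which hold only the counting error (PCR copies were not told apart by molecular identifiers), were narrow for mir-423 (3373.7 to 3545.4 in OB and 5753.0 to 5942.0 in BM) and widest in relative terms for mir-107 in OB (349.4 to 406.6). Myo-EVs were more than 2-fold above OB for 3 of the 8 entries and more than 2-fold below it for 1, where the share over the 443 entries with a mean of at least 10 was 35.7% and 37.2%, respectively. Against BM, Myo-EVs were more than 2-fold higher for 2 and lower for 4 of the 8, where the share over all was 45.6% and 35.2%. BM was more than 2-fold above OB for mir-191 and mir-186, 2 of 8 entries against 26.4% of all entries, and was above OB for all 8 on the authors' scaling. The ratio of BM to OB was from 1.03 for mir-320 to 2.85 for mir-186. Other scalings moved this ratio by -0.21 to 0.24 on the log2 scale, and that of mir-320 was 0.946 with TMM scaling and 0.892 with median-of-ratios scaling, which turned its direction. For mir-103-1 and mir-103-2, the ratio of Myo-EVs to BM was 0.479 and 0.477 on the authors' scaling but 0.530 and 0.528 with TMM, which is less than 2-fold.

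**Figure D2:**
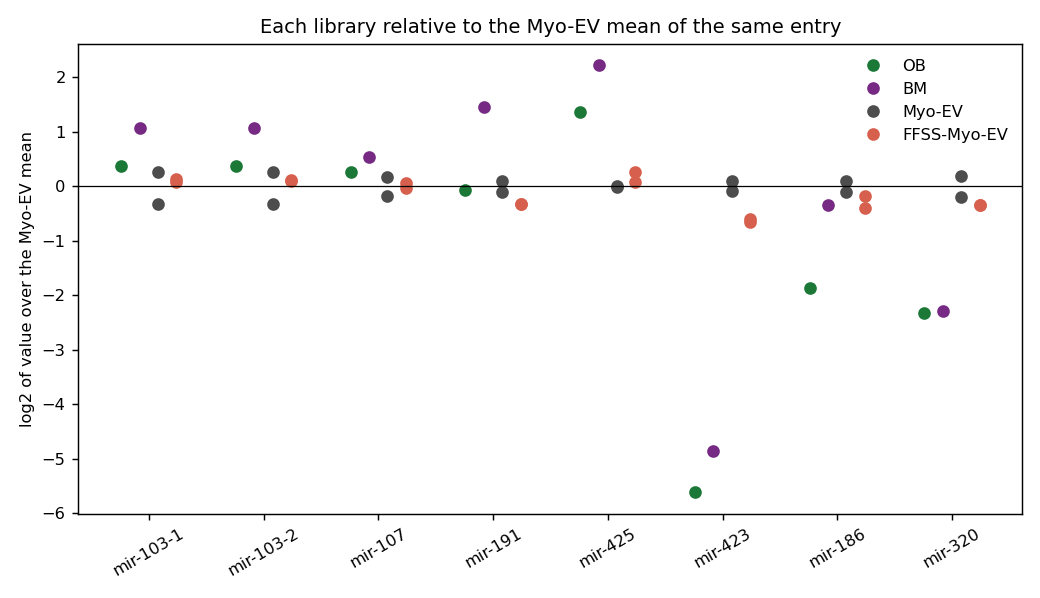
Log2 of the value in each library over the Myo-EV mean of the same entry (vertical axis), with 1 column of points per reference entry and colours for the groups. The OB and BM points of mir-423, mir-320 and the OB point of mir-186 lie far below 0, and those of mir-425 above it.

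Ratios within a library do not depend on the scaling. The count of mir-423 was 0.981 times that of mir-103-1 in OB and 1.02 times in BM, but 72.6 and 54.4 times in Myo-EVs and 38.5 and 35.9 times under FFSS. This pair was thus nearly equal in the cells and far apart in the vesicles. The neighbours mir-191 and mir-425 had a ratio of 9.12 in OB, 14.3 in BM, 22.8 and 25.9 in Myo-EVs, and 18.4 and 16.1 under FFSS. The cells and the vesicles did not overlap in this ratio, although both entries lie in the same noncoding gene. The ratio of mir-186 to mir-191 was 0.150 in OB and 0.151 in BM and from 0.497 to 0.581 in the EV libraries, so that the cells were alike and below all vesicles. The ratio of mir-103-1 to mir-107 stayed between 7.81 and 12.5 in the 6 libraries.

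The standard deviation (SD) of the log2 ratio of 2 entries over the libraries measures how evenly they move together. Over the 6 libraries and apart from the copies of mir-103, it was lowest for mir-103-1 and mir-107 (0.22) and highest for mir-425 and mir-423 (3.44). The 3p strands of mir-103-1 and mir-107 differ by 1 base, and whether reads were shared between these entries was not tested. With the copies of mir-103 summed to 1 entry, the mean over the partners was 1.05 for mir-107, 1.08 for mir-103, 1.15 for mir-186, 1.16 for mir-191, 1.44 for mir-425 and for mir-320, and 2.61 for mir-423. Within the 4 EV libraries the same means were 0.20 for mir-191, mir-320 and mir-186, 0.22 for mir-107, 0.29 for mir-103, 0.30 for mir-425 and 0.32 for mir-423. The closest pairs there, the copies of mir-103 apart, were mir-191 with mir-320 (0.07) and mir-191 with mir-186 (0.10). A pair that was even in the vesicles was not always even with the cells included, since mir-191 and mir-320 had an SD of 1.61 over the 6 libraries.

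The coefficient of variation (CV), the SD over the mean, was also set beside that of all entries. Over the 6 libraries it was 17.7% for mir-107, 34.8% for mir-186, 35.2% for mir-103-1, 35.3% for mir-103-2, 57.2% for mir-320, 61.8% for mir-191, 76.9% for mir-425 and 79.2% for mir-423. The median over the 443 entries was 73.6%, and mir-107 ranked 6 from the lowest while mir-425 and mir-423 ranked 232 and 249. Among the 133 entries with a mean of at least 1000, which hold 6 of the 8, the median was lower, at 63.4%. Since 4 of the 6 libraries are EVs, this CV gives the vesicles more weight than the cells. An entry high in all EVs therefore has a lower CV than one as high in a single cell library. The CVs of mir-423 and mir-425 were close, but their log2 ranges over the condition means were 5.61 and 2.21. Within the EV libraries the CV was from 8.99% for mir-425 to 25.5% for mir-423 with a median of 15.5%, and the median over 354 entries was 20.6%. The entry mir-425 thus had the lowest CV in the 4 EV libraries and the next to highest with the cells included, but its place in the vesicles rested on the libraries taken. With 1 EV library left out in turn, the lowest CV was 6.41% for mir-107 without the first Myo-EV library, 5.80% for mir-320 without the second, 9.85% for mir-186 without the first FFSS-Myo-EV library and 3.01% for mir-425 without the second. For mir-103-1, leaving out the first Myo-EV library gave a CV of 6.92%, and leaving out another gave 16.5% to 20.5%. The CV gives low entries a larger share of counting error, and mir-107 and mir-425 had 232 to 312 counts in each EV library.

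**Figure D3:**
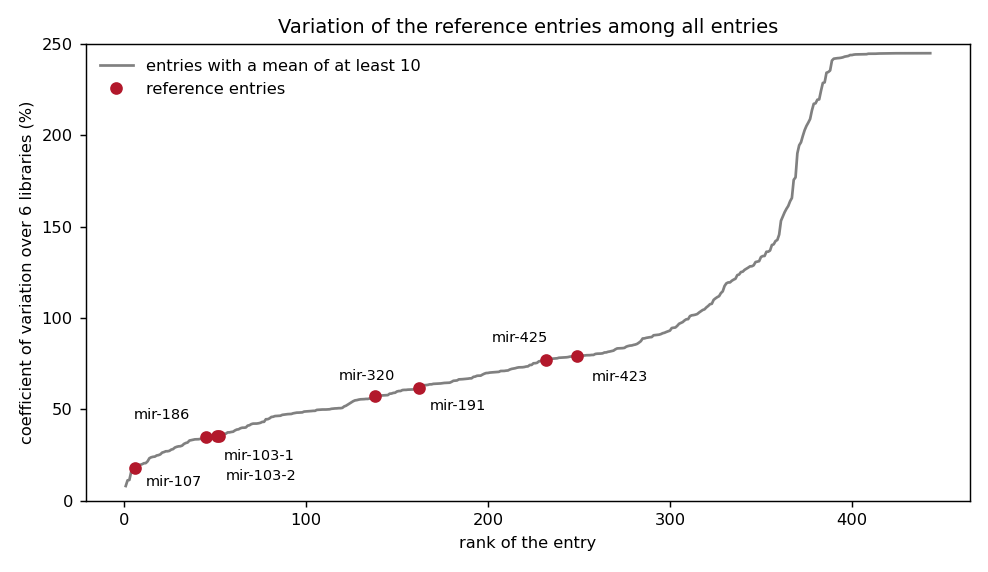
Coefficient of variation over the 6 libraries (vertical axis, percent) against the rank of the entry (horizontal axis) for the 443 entries whose normalized expression value averages at least 10, with the 8 reference entries as red points. The entry mir-107 lies at rank 6 with 17.7%, and mir-425 and mir-423 lie past the median of 73.6%.

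Among the reference entries, mir-423, mir-191, mir-186 and mir-320 were lower in FFSS-Myo-EVs than in Myo-EVs, and mir-103-1, mir-103-2, mir-107 and mir-425 did not pass the test. The counts of the 4 EV libraries were compared by the quasi-likelihood test of edgeR on TMM-normalized libraries, with Benjamini-Hochberg adjustment over the 354 entries with a mean of at least 10, a filter that all 8 entries passed. An adjusted p below 0.05 was found for 4 of the 8 as lower and for 0 as higher, where 18.4% of all entries were called lower and 12.1% higher. At an unadjusted p below 0.05 the numbers were again 4 and 0, beside 23.4% lower and 15.5% higher over all. With DESeq2 they were 4 and 0 as well, beside 13% and 10.2% over all. The median log2 fold change was -0.25 over the 8 entries and -0.02 over all tested.

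The largest of these falls was that of mir-423, at -0.75 ± 0.22 on the log2 scale (± standard error, edgeR adjusted p = 0.00505). Both FFSS-Myo-EV libraries were below both Myo-EV libraries, and the mean went from 168931 ± 14939.5 to 109319 ± 2912.4 (SD, n = 2 each), a ratio of 0.647. For mir-320 it was -0.46 ± 0.13 (edgeR adjusted p = 0.00367), for mir-191 -0.45 ± 0.14 (0.00539) and for mir-186 -0.41 ± 0.13 (0.00686). Their ratios of means were 0.786, 0.795 and 0.820 on the authors' scaling. When the second Myo-EV library was left out, mir-320 was at -0.23 and mir-186 at -0.27 on the log2 scale, and edgeR no longer called mir-186 (adjusted p = 0.0508). On this scaling 4 entries had both FFSS-Myo-EV libraries below both Myo-EV libraries, where the share of all entries was 23.7%, and 1, mir-425, had both above, where it was 36.7%.

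For the entries that did not pass, the 95% interval of the log2 fold change was -0.26 to 0.24 for mir-103-1, -0.26 to 0.24 for mir-103-2, -0.43 to 0.23 for mir-107 and -0.30 to 0.39 for mir-425. These intervals, like the standard errors above, rest on a spread that edgeR pooled over the tested entries. They do not show an entry's own replicate spread, and the Myo-EV libraries differed by 0.60 on the log2 scale for mir-103-1. The interval of mir-107 holds the value found for mir-186, and a p that misses the threshold does not show that these entries were even. The log2 fold change of mir-103-1 was -0.01 with TMM and 0.10 with the authors' scaling, and that of mir-107 went from -0.10 to 0.02. That of mir-103-1 also depended on the Myo-EV libraries. Without the second Myo-EV library, mir-103-1 and mir-103-2 were called higher, with log2 fold changes of 0.35 and 0.34 (adjusted p = 0.00464 for both in edgeR), and without the first they were -0.23 and -0.22. With 1 Myo-EV library, the spread in this test came from the FFSS-Myo-EV pair alone, which was the closer pair for both entries, and the lone library was assumed to vary like it.

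**Figure D4:**
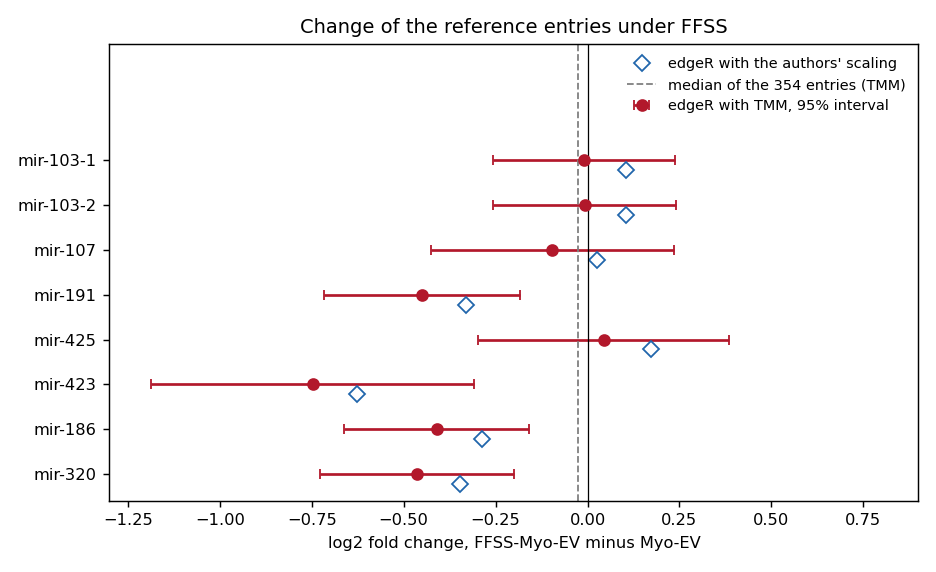
Log2 fold change of FFSS-Myo-EV over Myo-EV (horizontal axis) for each reference entry, as red points with 95% intervals from edgeR with TMM normalization and as blue diamonds with the authors' scaling. The intervals of mir-191, mir-423, mir-186 and mir-320 lie below 0 with TMM, and all diamonds lie to the right of the points.

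The calls depended on the scale between the groups and on which libraries were taken. With the authors' scaling in edgeR, the median of all entries was 0.09 instead of -0.02 and only mir-423 was called (adjusted p = 0.00153), while mir-320, mir-191 and mir-186 had adjusted p = 0.0583, 0.0734 and 0.128. When either FFSS-Myo-EV library was left out, edgeR called 0 of the 8 entries (DESeq2 was not run on 3 libraries), with 2 and 1 of them at an unadjusted p below 0.05 without the first and the second library, and the number called over all entries went from 108 to 44 and 45. Without the first or the second Myo-EV library it was 132 and 113, and 4 and 5 of the 8 were called. Over all entries 43 were higher and 65 lower with TMM, against 54 and 39 with the authors' scaling, 49 and 46 with library totals and 57 and 37 with limma and a mean-variance trend.

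The study measured miR155 and miR196a in EVs by quantitative PCR against a small nucleolar RNA and reported both as significantly higher under FFSS. That PCR measured a single mature strand of each, in RNA extracted in another way and with more experiments per group. The counts here add the strands of both arms and come from 2 libraries per group. The ratios and calls below therefore do not test the PCR result. How a ratio of counts changes with the miRNA taken as the reference can be read from the sequenced libraries. Relative to each of the 8 entries, the log2 ratio of mir-155 did not overlap between the groups and was higher under FFSS, and the difference of the means was from 0.65 against mir-425 to 1.45 against mir-423. Against mir-425, the log2 ratio of mir-155 was 1.65 and 1.61 in Myo-EVs and 2.29 and 2.27 under FFSS. The difference between these references is that in their own change, and the direction for mir-155 was the same with all of them. The study had picked miR155 and miR196a from a list of miRNAs that rose under FFSS in its small RNA sequencing. The direction was thus largely set by that choice and is no independent support.

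For mir-196a-2, the difference was from 0.11 against mir-425 to 0.90 against mir-423. The groups did not overlap, with FFSS higher, for 4 of the 8 references, namely mir-423, mir-320, mir-191 and mir-186. These are the ones called lower, and a fall of the reference by itself raises the ratio. With 2 libraries per group such a separation is common. On the authors' scaling, 36.7% of the 354 tested entries had both FFSS-Myo-EV values above both Myo-EV values. With mir-103-1, mir-103-2, mir-107 and mir-425 the groups overlapped. Against mir-103-1, the log2 ratio of mir-196a-2 was 1.93 and 1.15 in Myo-EVs and 1.69 and 1.68 under FFSS. Whether mir-196a-2 was separated between the groups thus depended on the reference, and no test was run on these ratios. In the edgeR test on counts, neither mir-196a-2 (log2 fold change 0.15) nor the entry mir-196a-1 (0.19) was called. The Myo-EV, OB and BM values that the study printed for mir-196a match those of mir-196a-2 here. Its printed FFSS value is higher than the mean of 9452.4 found here. The ratio of means of mir-196a-2 here, 1.21, is below the fold cutoff of the study's list, and the reason for the difference is not known.

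**Figure D5:**
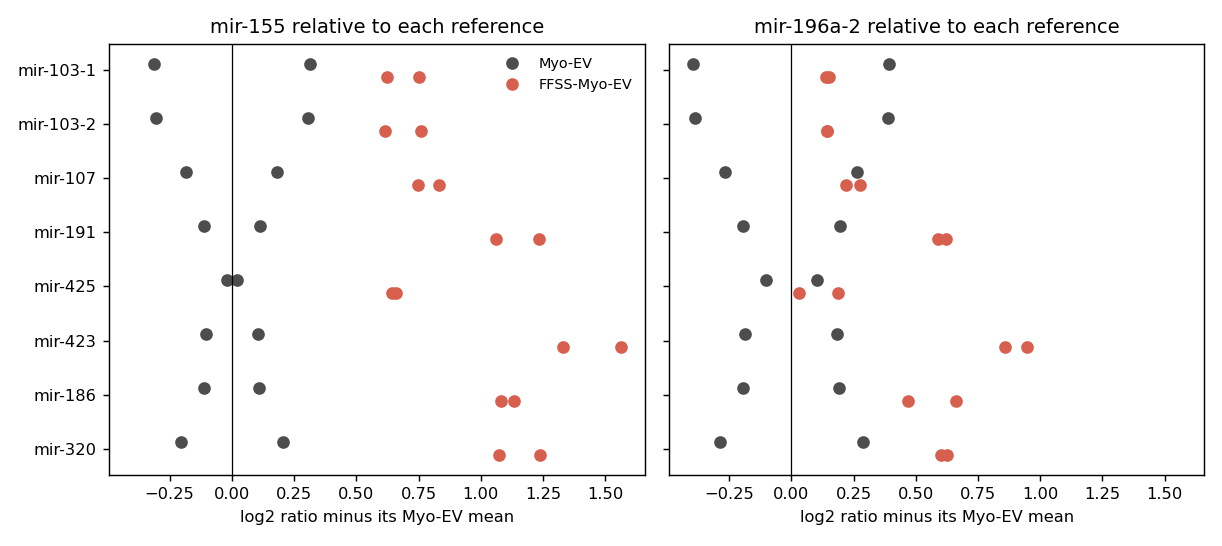
Log2 ratio of mir-155 (left) and mir-196a-2 (right) to each reference entry, minus the Myo-EV mean of that ratio (horizontal axis), for the 2 Myo-EV libraries in grey and the 2 FFSS-Myo-EV libraries in red. The groups are apart for mir-155 with all 8 references and for mir-196a-2 with 4 of them.

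A list of 17 other entries whose miRNAs have been used as references was set beside these 8. In the same edgeR test 5 of the 17 were lower, 2 were higher and 10 did not pass, with a median log2 fold change of 0.00. Over all tested entries 18.4% were called lower and 12.1% higher. Several of the 17 differ in name only by the copy number, such as mir-24-1 and mir-24-2, and are not independent. The lower ones were mir-24-1, mir-24-2, mir-25, mir-328 and mir-484, with log2 fold changes from -0.66 to -0.36, and the higher ones were mir-23a (0.53) and mir-26b (0.58). Of those that did not pass, mir-93 had a log2 fold change of 0.06 (95% interval -0.19 to 0.31) and mir-361 0.03 (-0.22 to 0.28). The CV over the 6 libraries had a median of 34.6% in this list, against 46.2% in the 8 entries, and was lowest for mir-484 (19.6%) and mir-93 (20.6%).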

How the data were processed

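The authors grouped the reads by sequence in CLC Genomics Workbench, matched the groups to miRBase, and deposited for each precursor entry the raw read count and a normalized expression value. The latter is a signal made by the authors from the deposited counts and equals the count times 1 constant per library, from 0.397 in BM to 1.20 in the second Myo-EV library. The GEO record names the build mm10, which is GRCm38. The miRBase release, the mismatches allowed and how reads with several matches were assigned are not given in the sources used here.

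Counts of the 4 EV libraries were tested with edgeR 4.0.16 (R 4.3.3), with TMM factors on the summed counts of each library and Benjamini-Hochberg adjustment. The design had foreseen edgeR for counts and limma otherwise. Entries with a mean normalized value of at least 10 over the EV libraries were tested. Standard errors were computed from the log2 fold change and F. The prior degrees of freedom were infinite, so the spread used for an entry was pooled over entries and not its own. The alternatives used limma 3.58.1, DESeq2 1.42.0 and other scalings. Levels in OB and BM, CV and ratios were computed in Python 3.11.15 (pandas 2.3.3, scipy 1.17.1). No library was a copy of its replicate (chi-square per degree of freedom 96.6 in Myo-EVs and 16.3 in FFSS-Myo-EVs, a check for doubly deposited libraries only).

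The members, the comparison lists and the tests were chosen with earlier results of these data known. Named were the 8 entries, 17 other reference entries, the 3 entries with the lowest CV among those with a mean of at least 1000, the 3 most like the mean of the 8 among those with a mean of at least 100, and mir-155 and mir-196a-2.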

Additional observations from a re-analysis of the deposited data

How the results depend on the processing

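The log2 fold changes of mir-191, mir-423, mir-186 and mir-320 were below 0 in all 14 or 15 alternative analyses that gave them, from -0.50 to -0.31, -0.83 to -0.62, -0.46 to -0.27 and -0.59 to -0.23, and were called in 10, 11, 7 and 10 of them. In place of 4 entries, 1 was called with limma and a mean-variance trend, 0 with limma without a trend (1 at an unadjusted p below 0.05), 1 with the authors' scaling in edgeR, and 2 with library totals without mir-423, an alternative chosen after the values were seen. Over all entries, limma without a trend called 68. Leaving out each EV library in turn gave from 44 to 132 calls over all entries and from 0 to 5 among the 8. The adjusted p of mir-107 was from 0.377 to 0.951 and that of mir-425 from 0.552 to 0.985, and only leaving out the second Myo-EV library turned mir-103-1 and mir-103-2 to called increases (0.35 and 0.34), with -0.23 and -0.22 without the first. With the replicate number as a block, 110 entries and 4 of the 8 were called. Nothing states that equal numbers belong together (the differences between replicates had a correlation of 0.20 over 354 entries), and the block changed no call of the 8 entries. The mean SD of log2 ratios between the 8 entries was 1.29 over the 6 libraries and 0.25 over the EV libraries. The median difference of mir-196a-2 relative to the 8 entries was 0.41, and between 0.17 and 0.65 with 1 EV library less, an alternative chosen after the values were seen. The cause of these shifts was not tested. With 1 library for OB and BM, only counting error is known there.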

Other observations

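Among the 133 entries whose normalized expression value averaged at least 1000, the lowest CV over the 6 libraries, the 8 reference entries apart, was that of mir-22 (8.08%), followed by mir-181b-2 (11.2%) and mir-101b (11.4%). The value of mir-22 was 6783.3 in OB, 5896.2 in BM, 5763.0 and 5691.4 in Myo-EVs, and 6380.7 and 6791.3 under FFSS. It was thus at a level like that of mir-191 in OB and the EVs and was not raised in BM. These entries were chosen as the lowest on the same libraries, and their CV is no estimate for other samples.

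The entries whose log2 values followed the mean of the 8 reference entries most closely were mir-24-2, mir-93 and mir-106b, with an SD of the difference of 0.15, 0.16 and 0.20 over the 6 libraries, where the median over 238 entries was 1.49. They were picked as the closest on the same libraries, and the mean holds both copies of mir-103. In the edgeR test, mir-24-2 (log2 fold change -0.56) and mir-106b (-0.46) were called lower under FFSS, and mir-93 (0.06) was not called. The geometric mean of the 8 entries was 1754.4 in OB, 3042.7 in BM, 2994.8 and 3719.0 in Myo-EVs, and 2960.6 and 3105.5 under FFSS. Without mir-423 it was 1592.2 in OB, 2771.7 in BM, 1699.0 and 2137.5 in Myo-EVs, and 1763.3 and 1872.3 under FFSS.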
